A study of Mus musculus with 4 samples.

Results

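A set of 39 genes for collagens, other matrix proteins and cells of the meningeal sheath was described in mouse optic nerve, out of 55401 genes in the deposited tables. The members were taken as listed by name: 18 collagen chains and 21 other genes, namely small proteoglycans, fibulins, further glycoproteins, cross-linking enzymes and genes of meningeal cells. The 4 libraries were made from optic nerve RNA, 2 of genotype Dor WT and 2 of genotype Dor cKO, where cKO is read as conditional knockout. Dor is a synonym of Trp53inp2, and the title of the series places the work in alpha-ketoglutarate metabolism of mature oligodendrocytes and in myelination. These groups are called wild type and knockout from here on. The Cre driver, age, sex, strain and number of animals behind each library, and whether the Dor WT animals carried floxed alleles or Cre, are not stated in the sources used here. The labels do not say that the 2 libraries of a group came from separate animals, so p-values measure the spread between these libraries, which may be technical.

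The optic nerve is covered by dura, arachnoid and pia, and fibroblasts of these layers make most of its fibrous matrix. Collagen chains are folded as trimers in the endoplasmic reticulum, where prolyl and lysyl hydroxylases that use alpha-ketoglutarate modify them, and are then secreted, trimmed and assembled into fibrils or networks. Small leucine-rich proteoglycans bind the fibrils and set their width, fibulins and fibrillin build elastic fibres, and lysyl oxidases cross-link the product. Chains of type IV collagen form basement membranes, which in the nerve also surround vessels and lie under astrocyte endfeet.

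The stretches just upstream of 4 members are shown as examples. They are Col3a1 as an abundant fibrillar chain, Fmod as the proteoglycan of the set with the largest rise, Slc22a6 as a meningeal transporter and Col15a1 as the member called lower in Dor cKO. Each is the 250 bases before the RefSeq start on GRCm38.p6, 5′ to 3′ and on the plus strand: chr1:45311288-45311537 for Col3a1, chr1:134037004-134037253 for Fmod, chr19:8617746-8617995 for Slc22a6 and chr4:47207762-47208011 for Col15a1. None of the 4 windows holds an annotated exon. Capitals mark matches on either strand to the letters TATAAA of a TATA box, the letters CCAAT that bind nuclear factor Y, the letters GGGCGG of a GC box, and the letters GTAAACA of a forkhead motif.
Col3a1: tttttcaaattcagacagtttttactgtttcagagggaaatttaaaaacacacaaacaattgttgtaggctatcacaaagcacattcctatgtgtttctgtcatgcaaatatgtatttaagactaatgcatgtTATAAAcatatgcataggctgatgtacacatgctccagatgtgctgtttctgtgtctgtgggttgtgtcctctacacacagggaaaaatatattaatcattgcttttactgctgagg
Fmod: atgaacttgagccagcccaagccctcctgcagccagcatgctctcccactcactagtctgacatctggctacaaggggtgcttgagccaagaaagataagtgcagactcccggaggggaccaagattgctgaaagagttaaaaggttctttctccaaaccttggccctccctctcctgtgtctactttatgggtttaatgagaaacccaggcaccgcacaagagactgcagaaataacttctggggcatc
Slc22a6: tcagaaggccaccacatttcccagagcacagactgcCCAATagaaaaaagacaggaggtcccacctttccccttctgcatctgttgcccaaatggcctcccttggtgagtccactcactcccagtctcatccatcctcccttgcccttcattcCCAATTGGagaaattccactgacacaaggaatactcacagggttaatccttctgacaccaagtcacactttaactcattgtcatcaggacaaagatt
Col15a1: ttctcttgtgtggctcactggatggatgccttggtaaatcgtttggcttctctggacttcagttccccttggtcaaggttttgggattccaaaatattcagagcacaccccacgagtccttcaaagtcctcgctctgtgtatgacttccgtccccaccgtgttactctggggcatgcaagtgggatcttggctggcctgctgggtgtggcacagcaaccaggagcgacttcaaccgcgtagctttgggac
Col3a1 held a TATAAA match 117 bases before its start. Slc22a6 held CCAAT matches that begin 214 and 97 bases before its start and a reverse match, overlapping the second of these, at 94 bases. Fmod and Col15a1 held none of the 4 motifs in this window. The RefSeq table gave a window for 28 members and none for Col1a1, Col5a2, Col12a1, Col14a1, Dcn, Lum, Mgp, Fn1, Lox, Loxl1 and Cdh1. Of the 28 windows, 13 held no annotated exon, and those of Fbn1, Fbln2, Col4a1 and Col4a2 were exonic over all 250 bases. Of these exonic windows, all but that of Col4a1 held GGGCGG. This motif was found in 17 of the 28 windows (60.7%), against 32.9% of 27025 windows over all genes of the table. CCAAT was found in 12 (42.9% against 34.5%), TATAAA in 2 (7.14% against 13.0%) and GTAAACA in 1 (3.57% against 3.09%). These are matches of letters and not binding sites.

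Depth was similar in the 4 libraries, with 17263830 to 21595832 expected counts. Fragments were longer in Dor WT (mean 260 bases in both libraries) than in Dor cKO (245 in both), so fragment length and genotype cannot be told apart. Names of the wild-type tables carry the tag P10, which could be an age, and names of the knockout tables do not. Whether the groups share an age is not known, so age and genotype cannot be told apart. Trp53inp2 itself had 138 and 134 CPM (counts scaled to library size) in wild type against 105 and 107 CPM in the knockout, a log2 fold change of -0.36 (SE 0.04, edgeR adjusted p = 2.73e-08). Counts over the whole gene in whole tissue do not by themselves check a deletion that is limited to some cells or exons.

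All 39 members were expressed well above the detection limit. The lowest count of any member in any library was 212, and all 39 passed the filter on low counts. Levels of different genes were compared in TPM, which corrects for transcript length. Sparc, which encodes a collagen-binding glycoprotein, was the most abundant member by mean TPM, with 1578 and 1553 TPM in wild type against 1884 and 1898 TPM in the knockout. It was followed by the adhesive glycoprotein gene Fn1 (mean 958 TPM) and the calcification inhibitor gene Mgp (866 TPM). The type I and III collagen chains came next, with means of 825 TPM for Col1a2, 658 for Col3a1 and 516 for Col1a1. Col15a1 was the least abundant member at a mean of 4.11 TPM, below Col14a1 at 12.4 TPM and Fbln2 at 16.2 TPM. Together the 39 genes held 0.853% and 0.85% of TPM in wild type, against 1.04% and 1.05% in the knockout. By expected counts, which weight long transcripts more, they held 2.06% in both Dor WT libraries and 2.55% and 2.56% in Dor cKO.

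**Figure D1:**
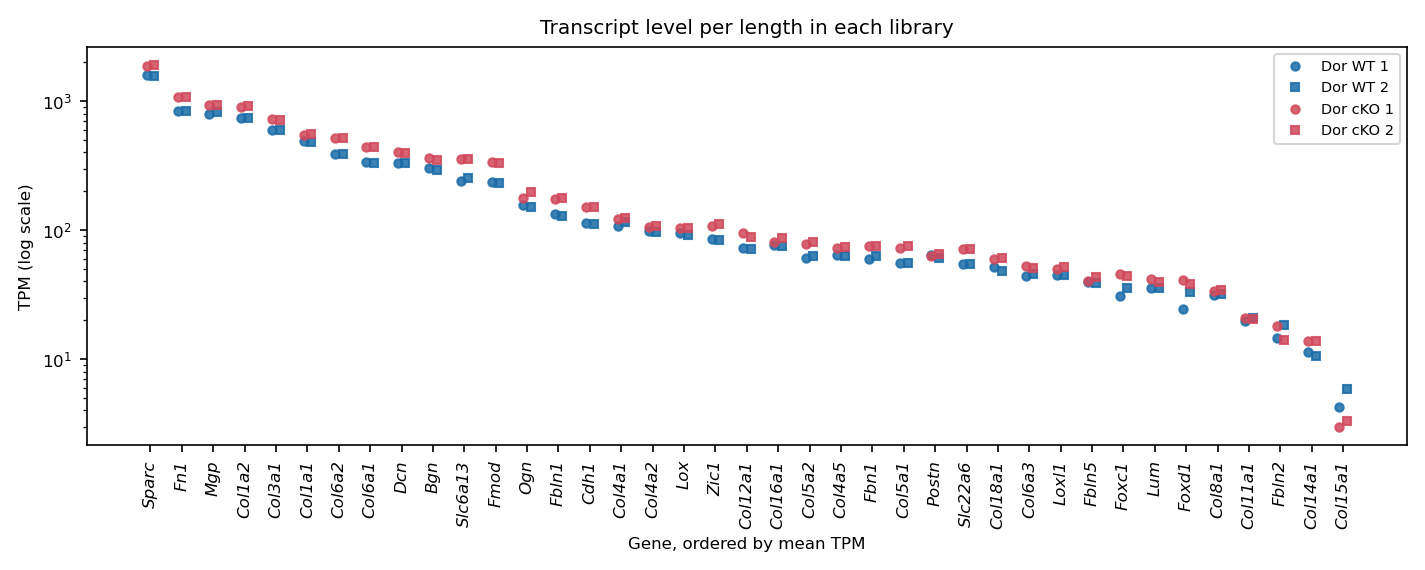
TPM on a log scale (y axis) of each of the 39 genes, ordered by mean TPM (x axis), with 1 point per library, blue for Dor WT and red for Dor cKO. The genes span mean levels from 4.11 TPM for Col15a1 to 1728 TPM for Sparc, and the difference between genes is much larger than that between genotypes.

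Most of the matrix and meningeal genes were higher in Dor cKO, by small amounts. Of the 39 members, 32 rose, 1 fell and 6 did not pass the test at an adjusted p under 0.05 (edgeR quasi-likelihood test, Benjamini-Hochberg adjustment over 16751 genes). Over all tested genes 14.3% were called higher and 13.4% lower. The median log2 fold change of the 39, coded as Dor cKO minus Dor WT, was 0.29, against -0.0036 over all tested genes. CPM values of the groups did not overlap for 36 members that were higher and 2 that were lower, where 30.2% and 30.5% of all tested genes separated in these directions. The members were chosen with earlier results of these data known, so the counts describe the list. In whole tissue, more cells of a type and more RNA per cell cannot be told apart.

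**Figure D2:**
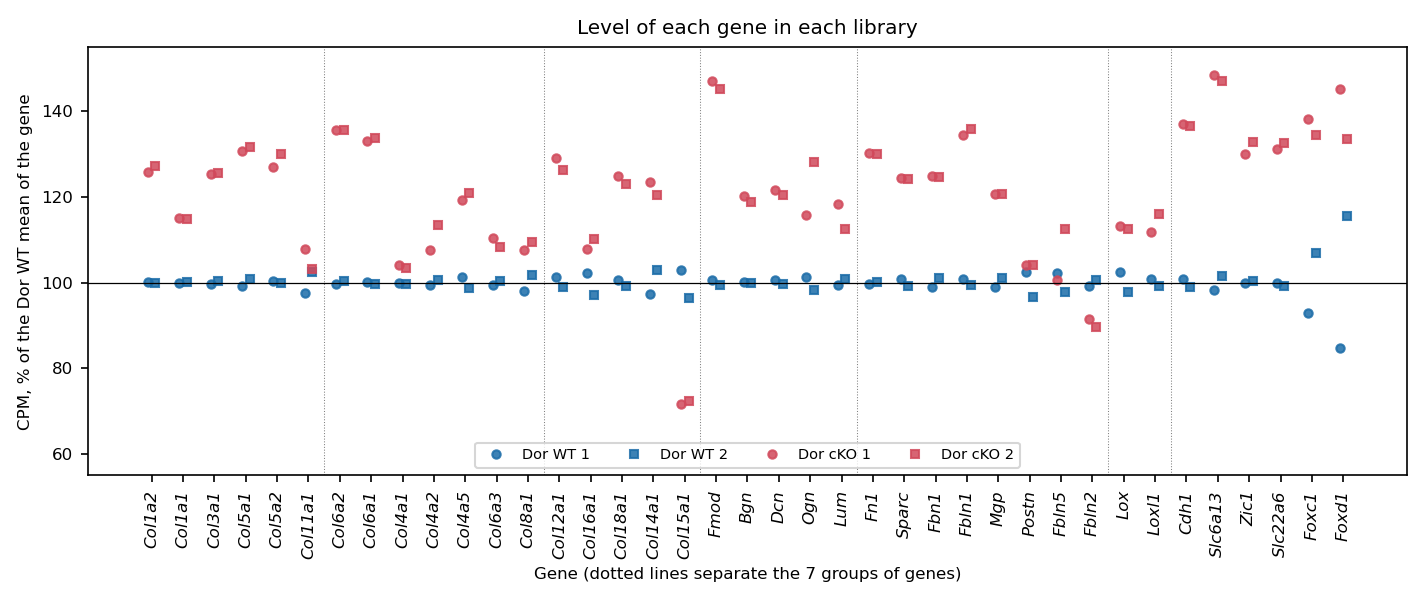
CPM of each gene in each library as a percentage of the gene's Dor WT mean (y axis), for the 39 genes in 7 groups (x axis, groups separated by dotted lines), blue for Dor WT and red for Dor cKO. Col15a1 and Fbln2 have both red points below 100%, Fbln5 is the gene whose groups overlap, and the Dor WT libraries of Foxc1 and Foxd1 lie far apart.

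The calls rest on a very small spread between libraries, with a common biological coefficient of variation of 0.03477. At a coefficient of 0.1, 8 members were higher and 0 lower, where 703 of all 16751 tested genes were higher and 891 lower. With limma on log2(TPM + 1), 20 members were higher and 0 lower, where 666 of the 16751 were higher and 722 lower. Col4a2, Col6a3, Col14a1, Lox and Loxl1 were among those that did not pass at the coefficient of 0.1 or with limma. Nor did they pass against a minimum absolute log2 change of 0.2. The members that rose under each of the 14 alternative settings were Col6a1, Col6a2, Fmod, Fbln1, Slc6a13 and Cdh1.

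Among the fibrillar collagen chains, 5 of 6 rose and 0 fell, with a median log2 fold change of 0.33. Col1a2 (chromosome 6, 4504814 to 4541544, in GENCODE coordinates on GRCm38 as for all genes below), the α2 chain of type I collagen, had 2334 and 2329 CPM in wild type against 2935 and 2968 CPM in the knockout. Both knockout libraries lay above both wild-type libraries, 26.6% higher in the fit (log2 fold change 0.34, SE 0.01, adjusted p = 1.56e-18). Col1a1 (chromosome 11, 94936224 to 94953042), the α1 chain of the same trimer, had 1834 and 1841 CPM in wild type against 2113 and 2108 CPM in the knockout. The groups were again apart, but the rise was smaller, at 14.9% (0.20, SE 0.01, adjusted p = 1.2e-12). Col3a1, the chain of the homotrimeric type III collagen of pliable tissues, had 1584 and 1596 CPM in wild type against 1992 and 1997 CPM in the knockout. Its rise of 25.5% was close to that of Col1a2.

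The type V chains, which start type I fibrils and limit their width, moved together. Col5a1 had 264 and 268 CPM in wild type against 348 and 350 CPM in the knockout (0.39, SE 0.03, adjusted p = 3.87e-13). Col5a2 had 265 and 264 CPM in wild type against 335 and 343 CPM in the knockout (0.36, SE 0.03, adjusted p = 4.22e-12). Col11a1, a related nucleating chain known from cartilage, had 94.1 and 98.8 CPM in wild type against 104 and 99.5 CPM in the knockout, a difference of 0.08 that did not pass (adjusted p = 0.221). It passed at 0.14 (adjusted p = 0.0227) after correction for a trend with gene length and base composition.

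Of the 7 network and beaded filament chains, 6 rose and 0 fell, with a median of 0.14. Col6a1 and Col6a2, which encode chains of the beaded filaments that link cells to fibrils, had the largest rises among the 18 collagen chains of the set. Col6a2 (chromosome 10, 76595762 to 76623630) had 991 and 999 CPM in wild type against 1350 and 1349 CPM in the knockout, 35.6% higher (0.44, SE 0.02, adjusted p = 7.67e-19). Col6a1 had 883 and 878 CPM in wild type against 1173 and 1178 CPM in the knockout, 33.4% higher. Col6a3, the long α3 chain of this filament, had 229 and 231 CPM in wild type against 254 and 249 CPM in the knockout. It rose by 9.26% only, and its 95% interval of 0.07 to 0.19 lay below those of Col6a1 (0.38 to 0.45) and Col6a2 (0.41 to 0.47).

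Of the basement membrane chains, Col4a2 and Col4a5 rose and Col4a1 did not pass. Col4a1 had 435 and 434 CPM in wild type against 453 and 450 CPM in the knockout, a log2 difference of 0.05 (adjusted p = 0.0726). Col4a2 had 395 and 399 CPM in wild type against 427 and 450 CPM in the knockout (0.14, SE 0.02, adjusted p = 3.67e-05). These genes lie head to head on chromosome 8 (Col4a1 from 11198423 to 11312826 on the minus strand, Col4a2 from 11312805 to 11449287 on the plus strand), and their annotated exons share 22 bases. Col4a5, a chain of other type IV trimers on the X chromosome, had 237 and 231 CPM in wild type against 279 and 283 CPM in the knockout (0.26, SE 0.03, adjusted p = 1.04e-08). Col8a1, a short-chain network collagen of vessels and Descemet's membrane, had 104 and 108 CPM in wild type against 114 and 116 CPM in the knockout. Its call (0.11, adjusted p = 0.0409) did not hold in DESeq2 (adjusted p = 0.13) or when libraries were scaled by total count (adjusted p = 0.0986). Nor did it hold when wild-type library 1 was left out (adjusted p = 0.175), or knockout library 1 (0.0914) or 2 (0.236).

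Of the 5 fibril-associated and multiplexin collagens, 4 rose and 1 fell. Col12a1, which decorates type I fibrils, had 366 and 357 CPM in wild type against 466 and 456 CPM in the knockout (0.35, SE 0.02, adjusted p = 8.51e-13). Its relative Col14a1 rose from 34.0 and 35.9 CPM to 43.1 and 42.0 CPM (0.28, SE 0.07). Col16a1 had 182 and 173 CPM in wild type against 192 and 196 CPM in the knockout (0.13, SE 0.03, adjusted p = 0.00377). It no longer passed when wild-type library 2 (0.088, adjusted p = 0.0872) or knockout library 2 (0.11, adjusted p = 0.0655) was left out, or after that correction for length and base composition (0.08, adjusted p = 0.0896).

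The multiplexins went in opposite directions. Col18a1, a basement membrane collagen whose end fragment is endostatin, had 149 and 147 CPM in wild type against 185 and 182 CPM in the knockout (0.31, SE 0.03, adjusted p = 1.37e-08). Col15a1 (chromosome 4, 47208161 to 47313167), which links basement membranes to the fibrils beneath them, had 14.5 and 13.6 CPM in wild type against 10.1 and 10.2 CPM in the knockout. Both knockout libraries were lower, with a log2 fold change of -0.47 (SE 0.13, adjusted p = 0.00573), 27.7% lower. The 95% intervals of Col18a1 (0.24 to 0.38) and Col15a1 (-0.73 to -0.21) do not meet. Col15a1 did not pass with limma on log2(TPM + 1) (adjusted p = 0.144), at a coefficient of variation of 0.1 (adjusted p = 0.0612) or against a minimum absolute log2 change of 0.2 (adjusted p = 0.0543).

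**Figure D3:**
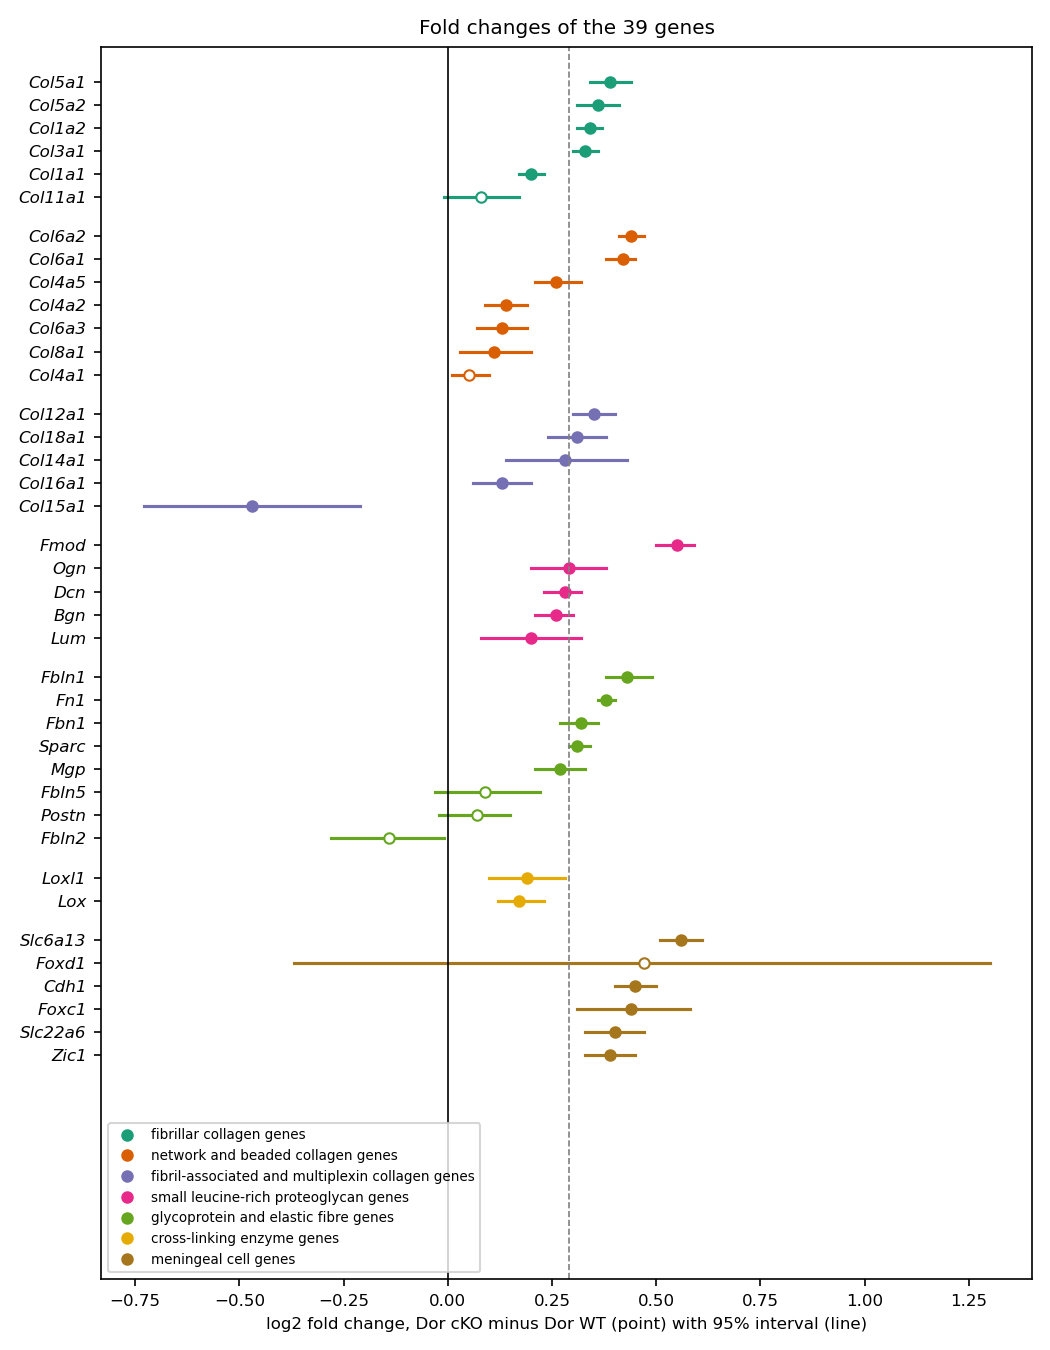
Log2 fold change, Dor cKO minus Dor WT (x axis), of the 39 genes (y axis, coloured by group); points are fitted values, lines 95% intervals, open points genes that did not pass, and the dashed line the median of 0.29. Slc6a13 and Fmod lie farthest to the right at 0.56 and 0.55, Col15a1 farthest to the left at -0.47, and Foxd1 has the widest interval, -0.37 to 1.3.

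All 5 small leucine-rich proteoglycan genes rose, with a median of 0.28. Fmod (chromosome 1, 134037254 to 134048277), which encodes fibromodulin, a regulator of fibril growth and cross-linking, had 458 and 452 CPM in wild type against 669 and 661 CPM in the knockout. It was 46.2% higher, with no overlap (0.55, SE 0.02, adjusted p = 1.93e-18), and its 95% interval of 0.50 to 0.59 lay above those of the other 4. Dcn, which encodes decorin, the main proteoglycan of type I fibrils, had 344 and 341 CPM in wild type against 416 and 412 CPM in the knockout (0.28, SE 0.02). Bgn, which encodes its close relative biglycan, had 373 and 372 CPM in wild type against 447 and 442 CPM in the knockout (0.26, SE 0.02). The intervals of Dcn and Bgn overlap.

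The calls for Lum and Ogn were lost when a single library was left out. Lum, which encodes lumican, had 53.3 and 54.0 CPM in wild type against 63.4 and 60.3 CPM in the knockout (0.20, SE 0.06, adjusted p = 0.00844), and it did not pass when knockout library 1 was left out (0.17, adjusted p = 0.127). Ogn, which encodes osteoglycin, had 249 and 242 CPM in wild type against 285 and 315 CPM in the knockout (0.29, SE 0.04, adjusted p = 0.00027). Its knockout libraries were the more spread pair, and it did not pass when either wild-type library was left out (0.31, adjusted p = 0.062 without library 1, and 0.27, adjusted p = 0.0729 without library 2), with a difference about as large as before.

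Of the 8 glycoprotein and elastic fibre genes, 5 rose, 0 fell and 3 did not pass. Fn1 (chromosome 1, 71585520 to 71653200), which encodes fibronectin, the scaffold on which collagen is laid down, had 3986 and 4003 CPM in wild type against 5200 and 5189 CPM in the knockout. Its rise of 30.0% (0.38, SE 0.01) had the smallest adjusted p of the members, 1.9e-21. Sparc had 2044 and 2008 CPM in wild type against 2522 and 2514 CPM in the knockout (0.31, SE 0.01). Fbln1, which encodes a fibulin of basement membranes and elastic fibres, had 214 and 211 CPM in wild type against 285 and 288 CPM in the knockout (0.43, SE 0.03). Fbn1, which encodes fibrillin, the backbone of microfibrils, had 391 and 399 CPM in wild type against 493 and 492 CPM in the knockout (0.32, SE 0.02). Mgp had 197 and 201 CPM in wild type against 240 CPM in both knockout libraries (0.27, SE 0.03).

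The members that did not pass in this group include both other fibulins. Fbln5, which encodes an elastic fibre assembly protein, had 60.0 and 57.4 CPM in wild type against 59.0 and 66.1 CPM in the knockout, so the groups overlapped. Fbln2, a fibulin of vessel walls and basement membranes, had 43.7 and 44.3 CPM in wild type against 40.3 and 39.4 CPM in the knockout (-0.14, adjusted p = 0.115). With the length and GC trend removed its value was -0.18 (adjusted p = 0.0443). The 95% interval of Fbln1 (0.38 to 0.49) lay above those of Fbln2 (-0.28 to -0.01) and Fbln5 (-0.03 to 0.22). Postn, which encodes periostin, a matricellular protein of growing and injured connective tissue, had 124 and 117 CPM in wild type against 126 CPM in both knockout libraries. Its difference of 0.07 did not pass (adjusted p = 0.251), and was 0.15 (adjusted p = 0.00489) after that correction for length and base composition.

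Both genes for cross-linking enzymes rose by less than the median of the 39. Lox, which encodes lysyl oxidase, had 295 and 282 CPM in wild type against 326 and 324 CPM in the knockout (0.17, SE 0.03, adjusted p = 7.41e-06). Loxl1, a relative that acts on elastin, had 94.6 and 93.2 CPM in wild type against 105 and 109 CPM in the knockout (0.19, SE 0.04, adjusted p = 0.00151).

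The genes of meningeal cells had the highest median of the 7 groups, 0.45, and 5 of 6 rose. Slc6a13 (chromosome 6, 121300227 to 121337733), a GABA and taurine transporter gene of meningeal fibroblasts, had 303 and 313 CPM in wild type against 457 and 453 CPM in the knockout. It was 47.5% higher without overlap (0.56, SE 0.02, adjusted p = 3.94e-17), the largest difference of the 39. Slc22a6, an organic anion transporter gene, had 141 and 140 CPM in wild type against 185 and 187 CPM in the knockout (0.40, SE 0.03). Cdh1, which encodes E-cadherin, a junction protein of the arachnoid barrier and of epithelia, had 325 and 319 CPM in wild type against 441 and 440 CPM in the knockout (0.45, SE 0.02, adjusted p = 2.92e-15).

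Of the transcription factor genes of this group, Zic1 was even between libraries of a genotype, whereas the wild-type libraries of the forkhead genes lay apart. Zic1, a zinc finger gene of the meninges and dorsal neural tube, had 207 and 208 CPM in wild type against 269 and 275 CPM in the knockout (0.39, SE 0.03, adjusted p = 4.89e-12). Foxc1, a forkhead gene required for the meninges to form, had 119 and 137 CPM in wild type against 177 and 172 CPM in the knockout (0.44, SE 0.06, adjusted p = 0.000262). Foxd1, a forkhead gene of stromal cells and of the developing optic chiasm region, had 80.5 and 110 CPM in wild type against 138 and 127 CPM in the knockout. Its knockout libraries were both higher, but the difference of 0.47 did not pass (adjusted p = 0.301), and its wild-type libraries lay further apart, as a ratio of CPM, than those of any other member. With wild-type library 1 left out the difference was 0.27 (adjusted p = 1.55e-05), and with library 2 left out it was 0.72 (adjusted p = 1.3e-18). Those fits take the spread from the knockout pair and remove the wild-type spread, so passing there does not show that Foxd1 differed. It also passed at a coefficient of variation of 0.1 (0.48, adjusted p = 0.0193).

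The fitted size of the change differed between the 39 genes, by intervals whose width rests on the small and possibly technical spread between libraries. Of the 95% intervals of these genes, each unadjusted, 15 lay above the median of 0.29, 13 below it and 11 included it. Those above were Col1a2, Col3a1, Col5a1, Col5a2, Col6a1, Col6a2, Col12a1, Fmod, Fbln1, Fn1, Slc6a13, Slc22a6, Foxc1, Zic1 and Cdh1. Those below were Col1a1, Col11a1, Col4a1, Col4a2, Col6a3, Col8a1, Col15a1, Col16a1, Fbln2, Fbln5, Postn, Lox and Loxl1.

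Chains of 1 collagen were also compared within each library, as ratios of TPM. Col1a1 stood at 0.664 and 0.645 of Col1a2 in wild type, against 0.604 and 0.6 in the knockout, a mean 0.92 times that in Dor WT. Col6a3 stood at 0.113 and 0.116 of Col6a2 in wild type, against 0.101 and 0.0979 in the knockout, 0.865 times. Both ratios were lower in both knockout libraries than in either wild-type library. Col6a1 over Col6a2 was 0.864 and 0.853 in wild type, against 0.842 and 0.847 in the knockout, and Col5a1 over Col5a2 was 0.918 and 0.890 against 0.947 and 0.936. For these 4 ratios the two-sided exact permutation p was 0.333, the smallest that 2 against 2 libraries allow, and 0.417 adjusted over the 5 ratios. Col4a1 over Col4a2 was 1.08 and 1.20 in wild type, against 1.15 and 1.17 in the knockout, with overlap (exact permutation p = 1.0). When wild-type library 1 was left out the difference of that ratio turned from positive to negative (-0.0395), and so did the ratio of expected counts, which was 1.10 and 1.09 in wild type, against 1.06 and 0.998 in the knockout.

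**Figure D4:**
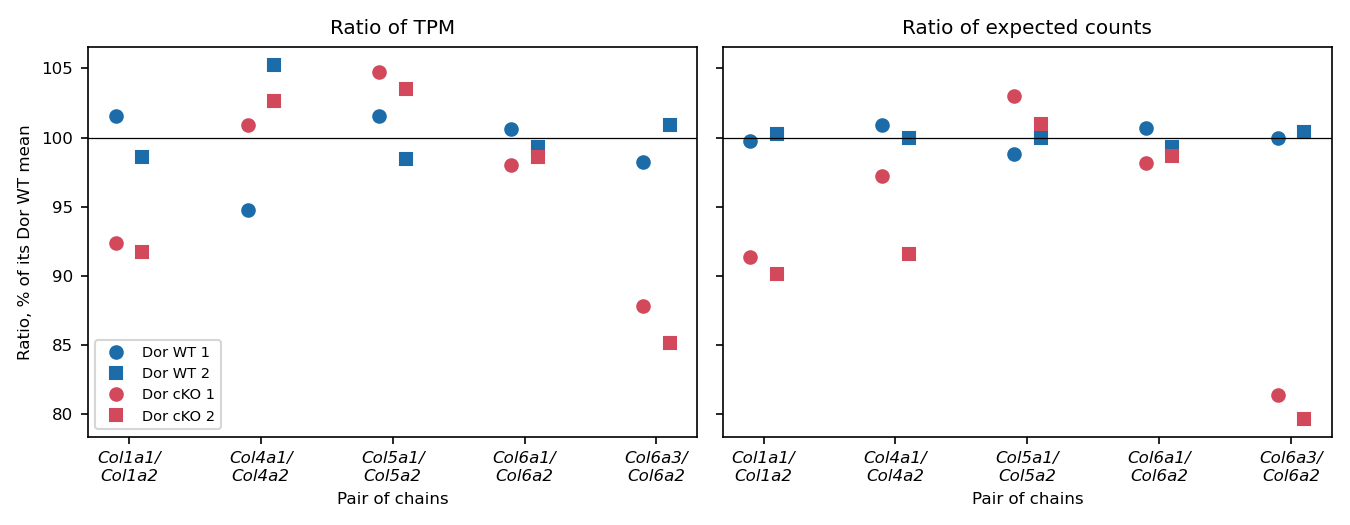
Ratio of pairs of collagen chains in each library as a percentage of its Dor WT mean (y axis), from TPM (left) and from expected counts (right), blue for Dor WT and red for Dor cKO. Col1a1 over Col1a2 and Col6a3 over Col6a2 have both red points below both blue points in both panels, and Col4a1 over Col4a2 differs between the panels.

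Other genes of matrix assembly were counted from 9 lists, beside 14.3% of all tested genes called higher and 13.4% lower. Of 32 other elastic fibre and matricellular genes, 25 rose and 2 fell (Ltbp2 and Matn4), with a median of 0.31. Among those that rose were Sparcl1 (0.30, SE 0.01), Vtn (0.34, SE 0.02) and Ccn3 (0.40, SE 0.02). The elastin gene Eln, at a mean of 1013 TPM, was among the 5 that did not pass (0.02, SE 0.01, edgeR adjusted p = 0.39). Of 15 laminin and basement membrane genes, 9 rose and 0 fell (median 0.24), led in abundance by the laminin genes Lamb2 (0.41, SE 0.02) and Lamc1 (0.35, SE 0.02) and the linker gene Nid1 (0.25, SE 0.02). Of 8 tested small proteoglycan genes outside the 39, 3 rose and 1 fell: Prelp had 0.30 (SE 0.03), Podn 0.48 (SE 0.07) and Chadl -0.39 (SE 0.06).

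Genes that modify, fold or export collagen rose in 11 of 19 cases and fell in 1 (Sec23a, -0.12), with a median of 0.14. Serpinh1, the collagen chaperone gene, rose by 0.31 (SE 0.02), Fkbp10, a peptidyl-prolyl isomerase gene, by 0.37 (SE 0.03), and P4hb, the shared subunit of prolyl 4-hydroxylase, by 0.09 (SE 0.02). Of 12 processing and cross-linking genes, 5 rose and 1 fell (Tll2), with a median of 0.23. Tll2 was near the floor, with 20 and 16 expected counts in wild type against 6 and 5 in the knockout. Pcolce, an enhancer of procollagen cleavage, was at 0.43 (SE 0.04), the cleaving protease gene Bmp1 at 0.12 (SE 0.04) and Loxl2 at 0.14 (SE 0.03). Of 20 tested proteases and inhibitors, 10 rose and 1 fell (Adamts4, an aggrecan-cleaving protease gene, -0.88; median 0.28), including the inhibitor gene Timp3 (0.23, SE 0.02), the membrane protease gene Mmp14 (0.30, SE 0.03) and Ctsk (0.35, SE 0.06).

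Of 20 collagen receptor and integrin genes, 10 rose and 1 fell (Itga7, -0.53; median 0.18), including the collagen receptor kinase gene Ddr1 (0.07, SE 0.02), Dag1 (0.27, SE 0.02) and Sdc4 (0.40, SE 0.03). Of 18 TGF-beta ligand, receptor and target genes, 9 rose and 2 fell (median 0.19). The ligand gene Tgfb2 rose by 0.19 (SE 0.03), the receptor gene Tgfbr2 by 0.47 (SE 0.03) and Ski, which encodes an inhibitor of the pathway, by 0.21 (SE 0.03). The 2 that fell, Smad7 and Skil, also encode inhibitors of the pathway and are known targets of it.

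Collagen chains outside the 39 went both ways. Of 22 tested, 5 rose and 8 fell, with a median of 0.02. Col26a1 rose by 0.57 (SE 0.03) and Col9a2 by 0.49 (SE 0.04), whereas Col9a3, another chain of the type IX trimer, fell by 0.31 (SE 0.04). The other 7 that fell were Col2a1, Col4a3, Col7a1, Col11a2, Col20a1, Col23a1 and Col25a1. Col4a3 was low, with 0.87 and 0.84 TPM in wild type against 0.56 and 0.54 TPM in the knockout (edgeR adjusted p = 0.0497).

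**Figure D5:**
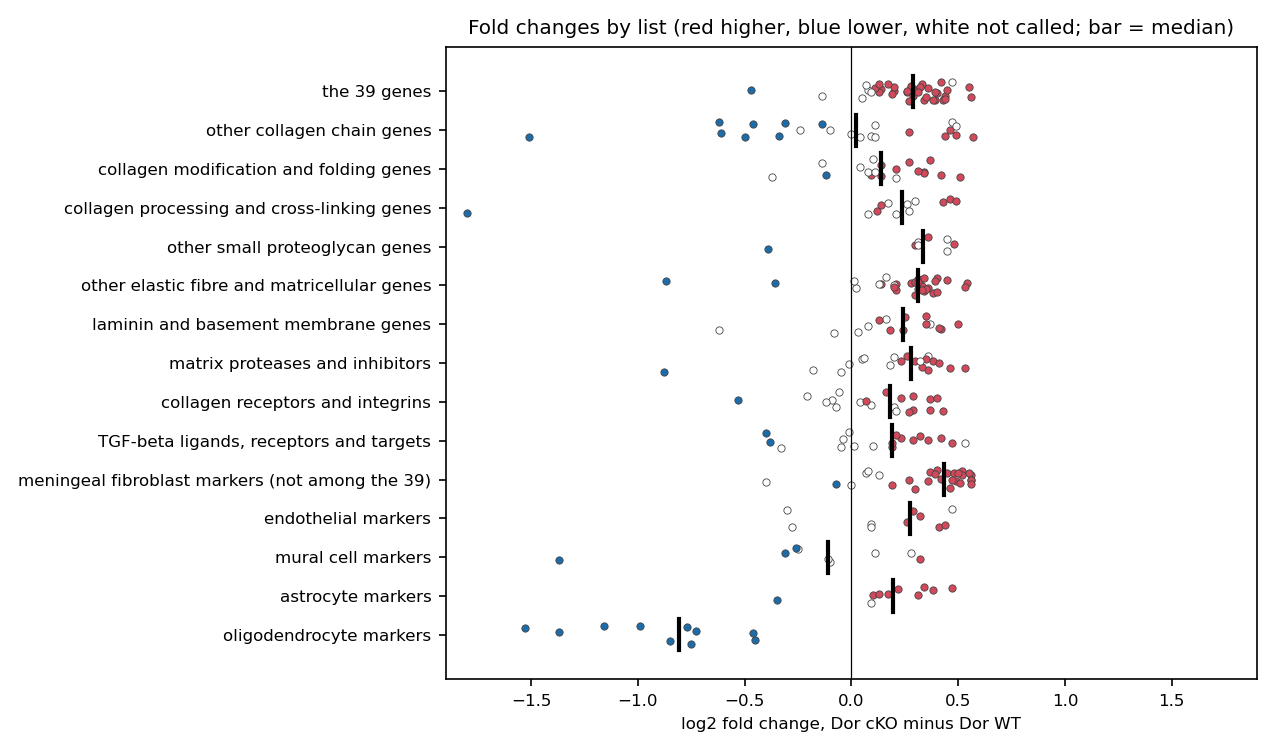
Log2 fold change, Dor cKO minus Dor WT (x axis), of each tested gene in 15 lists (y axis), with red for genes called higher, blue for lower, white for not called and a bar at the median. The medians of the 39 genes (0.29) and of the meningeal markers outside them (0.43) are on the right, that of other collagen chains is at 0.02, and all 10 oligodendrocyte markers are on the left.

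The labelled tissue was checked against markers of its cell types. All 36 meningeal fibroblast markers were detected, and 8 of them are among the 39. Of the other 28, 22 rose and 1 fell, with a median of 0.43. The most abundant was Ptgds, a prostaglandin synthase gene of the arachnoid that oligodendrocytes also express (0.52), followed by the imprinted gene Nnat (0.40). The gene that fell was Pdgfra (-0.07, adjusted p = 0.044), which oligodendrocyte precursors share. The summed level of the 36 was 34588 to 35354 TPM in Dor WT and 47720 to 48077 TPM in Dor cKO, most of it Ptgds.

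Some markers of other cells were called as well, and their part in the rise of the matrix genes was not tested. Beside the marker counts here and below, 14.3% of all tested genes were called higher and 13.4% lower. All 10 oligodendrocyte markers fell, led in abundance by the myelin gene Mbp (-0.73), and they summed to 24607 and 24385 TPM in wild type against 14009 and 13957 TPM in the knockout. Of 10 astrocyte markers, 8 rose (Gfap 0.10, Gja1 0.38) and 1 fell (Aqp4), with sums of 7955 and 7962 TPM against 8683 and 8695 TPM. Of 10 endothelial markers, 5 rose and 0 fell (Cdh5 had 0.41 and Cldn5 0.09), with sums of 148 and 153 TPM against 168 and 181 TPM. Of 9 tested mural markers, 1 rose (Pdgfrb, 0.32) and 3 fell (Rgs5, Myh11 and Notch3), with sums of 117 and 122 TPM against 118 and 115 TPM. Myh11 was low, with 43 and 49 expected counts in wild type against 16 and 22 in the knockout. Microglia markers rose in 4 of 10 cases (C1qa 0.36, C1qb 0.27) and fell in 1 (P2ry12), with sums of 697 and 701 TPM against 766 and 776 TPM. Blood cell markers rose in 3 of 11 tested cases and fell in 2 (the globin genes Hbb-bs and Hbb-bt), with sums of 2632 and 2767 TPM against 2523 and 2575 TPM.

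Markers of tissues next to the nerve were also summed. Skeletal muscle markers (Tnnt3 and Des highest) summed to 13.2 to 16.5 TPM and bone and cartilage markers (Bglap and Bglap2 highest) to 24.9 to 42.1 TPM in the 4 libraries. Retina, pigment epithelium and melanocyte markers (Rlbp1 and Pmel highest) summed to 15.2 to 15.7 TPM, with 3 of 13 at 0 in every library, and none of the 4 tested was called. No gene of the muscle list was called, and the gene called on the bone list was the cartilage collagen Col2a1, which fell by 0.62. Of the Schwann cell markers, 5 of 10 were under 1 TPM in every library; the 2 that fell, Mal and Sox10, are also oligodendrocyte genes, and the list summed to 378 and 383 TPM against 192 and 190 TPM. Among 9 tested pituitary markers, 7 fell and 1 rose, with sums of 303 and 299 TPM against 180 TPM in both knockout libraries. Without Cdh1, which is one of the 39, the pituitary sums were 190 and 188 TPM in wild type against 28.6 and 27.6 TPM in the knockout, and the wild-type sums were above those of the endothelial and mural lists. Chga had 78.4 and 81.9 TPM in wild type against 15.0 and 15.8 TPM in the knockout. Cga was at 53.6 and 58.7 TPM in wild type and listed at 0 in both knockout libraries. Any difference in the tissue taken along with the nerve cannot be told apart from genotype here. Its part in the levels of the matrix and meningeal genes was not tested. The pituitary marker that rose was Cdh1. Another epithelial adhesion gene, Epcam, had 11.3 and 10.9 TPM in wild type against 3.75 and 2.82 TPM in the knockout, so Cdh1 and Epcam moved in opposite directions. Of the 12 epithelial and skin markers, 4 fell (Krt5, Krt14, Krt18 and Epcam) and Cdh1 rose, with sums of 149 and 142 TPM against 174 TPM in both knockout libraries. Few reads carried 2 of these calls: Krt5 had 15 and 31 expected counts in wild type against 3 and 1 in the knockout. Krt14 had 17 and 18 against 0 and 5. The higher sum was carried by Cdh1, since without it the list summed to 35.7 and 31.4 TPM in wild type against 22.1 and 21.7 TPM in the knockout.

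Reads that could belong to another gene were looked for in the counting error and in annotated overlaps. The posterior SD of the expected count was at most 0.037% of the count for any member. Annotated exons of Fbn1 share 20.1% of their bases with Gm9913 on the opposite strand, and no source used here states whether counting used the strand, but Gm9913 had at most 21.6 expected counts in a library. Zic1 shares 1.05% of its exonic bases with Zic4 on the opposite strand, and reads from those bases could not be assigned here.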

How the data were processed

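Poly(A) RNA of optic nerves was sequenced as paired reads of 150 bases from stranded libraries, per the labels' protocols. Tools listed in the submitters' processing notes are Trimmomatic 0.36, STAR 2.7.9a and RSEM 1.3.1, and the build is GRCm38. No source used here gives their settings. By their headers, the deposited RSEM gene tables give expected counts (estimated read pairs per gene, not normalized) and TPM values, which the authors' pipeline scaled by length and to a fixed total.

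Symbols and coordinates came from GENCODE M21, on the same build, and matched 55141 of 55401 identifiers. Deposited expected counts were rounded, filtered with filterByExpr of edgeR 4.0.16 (minimum count 10, minimum total 15), scaled by TMM and tested by quasi-likelihood with a robust fit, on genotype alone, and p-values were adjusted by Benjamini-Hochberg over 16751 genes. Rows without a symbol held 0.00297% of counts and stayed in. SE is the size of a log2 fold change over the square root of F. Intervals are 95% and not adjusted. The steps were tested on simulated data.

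The members, gene lists and tests were chosen with earlier results of these data known. All 39 members were reported. Of each other list, the 3 called genes of highest mean TPM were named, and of each marker list the 2 genes of highest mean TPM, save those not reported here. Genes outside this rule, such as Smad7, Skil, Col2a1, Eln, Cga and Epcam, were chosen after their values were seen. Alternatives used DESeq2 1.42.0, limma 3.58.1, other scalings and filters, a minimum fold, and single libraries left out. The ratio of counts between chains was added after the data were seen.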

Additional observations from a re-analysis of the deposited data

How the results depend on the processing

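Over 14 alternative settings, 479 of 546 comparisons for single members kept their direction and call, and none changed direction. The members called higher numbered 32, and 8 at a coefficient of variation of 0.1, 20 with limma on log2(TPM + 1), 22 with a minimum absolute log2 fold change of 0.2 and 30 to 31 with a library left out. The member called lower, Col15a1, was 1 with each library left out, 0 under the first 3 of these settings and 2, with Fbln2, once the length and GC trend was removed. The median of 0.29 was 0.27 under total count scaling, as under limma, and 0.28 to 0.30 with a library left out. The difference in Col4a1 over Col4a2 reversed to -0.0395 without Dor WT replicate 1 (range -0.0395 to 0.0774) and to -0.066 as a ratio of expected counts. That ratio gave -0.0728 for Col1a1 over Col1a2 and -0.0449 for Col6a3 over Col6a2, on another scale than TPM. Relative to Dor WT, the Dor cKO means of these 2 ratios were 0.908 and 0.806 times by counts, against 0.92 and 0.865 times by TPM. The replicate block left 32 higher, 1 lower and a median of 0.29; the deviations of libraries with the same number correlated at -0.0177, so the numbers were not taken to pair them. Over all genes, the coefficient of 0.1 gave 703 higher and 891 lower, limma 666 and 722, the minimum fold 907 and 920, and total count scaling 2161 and 2529, against 2399 and 2248. With 2 libraries a group, differences of a few percent rest on the small spread between them. Genotype cannot be told apart from anything else that differed between the groups, such as fragment length, possibly age, and possibly tissue taken along with the nerve. A fit without a library has 1 library in that group, which is assumed to vary like the other pair.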

Other observations

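For a few members the deposited TPM and expected counts gave differences of unequal size. Col4a1 was 10.6% higher by mean TPM and 3.78% by the fit on counts, and Col6a3 was 16.1% higher by TPM and 9.26% by counts. Col11a1 was 0.686% higher by TPM and 5.58% by counts, and Col15a1 had a TPM change of -38.7% against -27.7% by counts. TPM of the groups overlapped for Col11a1, Fbln2 and Postn, whereas by CPM it was Fbln5 whose groups overlapped. TPM uses a length for each gene that is weighted over its transcripts in each library, and transcript levels were not analysed here.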
